A study of Arabidopsis thaliana with 22 samples.

Results

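The response of noncoding RNAs to the peptide SCOOP12 was followed in the meristematic-elongation zone (MEZ) of Arabidopsis thaliana roots, in the proscoop12 mutant and in the wild type Ws. The libraries were chosen by their titles, which end in ZME for this zone, and number 11 of the 22 in the series. Within MEZ, 5 libraries came from roots given 100 nM SCOOP12 (proscoop12 replicates 1, 3 and 4, and Ws replicates 3 and 4). The other 6 came from roots given water (replicates 1, 3 and 4 of each genotype). All plants were 11 days old, grew in short days and shared the Ws background. The labels describe proscoop12 as a mutant with longer roots than the wild type and do not give the kind of allele, and the time of treatment is not given either. The remaining 11 libraries of the series are from the differentiation zone (DZ) and serve here only for a comparison between zones.

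PROSCOOP12 encodes the precursor of SCOOP12, a secreted peptide of the Brassicaceae SCOOP family. These peptides are perceived at the cell surface by the receptor kinase MIK2 together with the co-receptor BAK1, and their perception sets off immune-type responses such as a burst of reactive oxygen species and slower root growth. In the MEZ cells divide and then elongate. Noncoding transcripts of plants include natural antisense RNAs, which are read from the strand opposite a coding gene, intergenic transcripts of unknown function, and precursors of small RNAs.

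The tables list 5224 loci, 1 transcript each, and none of them is protein coding. PROSCOOP12 has no value, so the genotype labels could not be checked on the mutated gene, and 0 of 10 marker genes chosen for the zones and for peptide perception were measured. MEZ libraries held 474434 to 1104936 estimated reads, of which 75053 to 118362 fell outside ribosomal and organellar loci. The organellar share was 17.7% to 21.2% with SCOOP12 and 17.2% to 21.9% in controls, so it did not separate the treatments. Correlations of log2 CPM between replicates were 0.900 to 0.954, and proscoop12 SCOOP12 replicate 1 stood furthest from the others of its group (0.911 and 0.900). Nothing in the labels tells whether the replicates are separate cultures, and p-values therefore measure the spread between these samples alone. Levels are given as CPM, reads per 1000000 reads on the tested loci after TMM scaling. Values of single libraries are listed in the order of replicates 1, 3 and 4, or 3 and 4 for Ws with SCOOP12. In bulk roots, fewer cells of a type and less RNA per cell cannot be told apart.

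Of 2262 loci with reads in MEZ, 709 passed the filter on low counts and were tested. SCOOP12 changed 77 of them, 10.9% of those tested, at an adjusted p under 0.05 in a fit with genotype and replicate number as blocks. The level rose at 48 loci (6.77%) and fell at 29 (4.09%). By unadjusted p under 0.05 there were 170 loci. Among the loci that rose the median change was 0.87 on the log2 scale, with 21 above 2-fold. Among those that fell the median size was 0.77, with 9 above 2-fold. The median of all 709 loci was -0.04, and other scalings left it between -0.04 and -0.03. The 5 SCOOP12 libraries lay wholly above the 6 controls at 17 of the 48, where 18 of all 709 loci (2.54%) showed this. They lay wholly below at 7 of the 29, where 12 of 709 (1.69%) did.

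The 3 loci that rose with the smallest p have no coding exon on either strand. Windows from 250 bases before to 50 bases after the annotated start are printed for the 4 loci that rose and the 2 that fell with the smallest p and with no annotated untranslated region inside the window. They are read 5′ to 3′ from the RefSeq genome TAIR10.1, which is of the Columbia accession and not of Ws. Capitals mark the core TTGAC of the W-box, the element bound by WRKY transcription factors of plant immunity, and its reverse complement GTCAA.
AT5G00585, chr5:17958055-17958354, plus strand: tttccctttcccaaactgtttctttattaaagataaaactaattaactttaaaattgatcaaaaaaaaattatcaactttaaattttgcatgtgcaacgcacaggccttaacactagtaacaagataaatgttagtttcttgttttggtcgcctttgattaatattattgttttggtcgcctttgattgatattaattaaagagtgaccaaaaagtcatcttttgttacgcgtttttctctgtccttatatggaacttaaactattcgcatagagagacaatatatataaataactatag
AT3G00390, chr3:7521693-7521992, plus strand: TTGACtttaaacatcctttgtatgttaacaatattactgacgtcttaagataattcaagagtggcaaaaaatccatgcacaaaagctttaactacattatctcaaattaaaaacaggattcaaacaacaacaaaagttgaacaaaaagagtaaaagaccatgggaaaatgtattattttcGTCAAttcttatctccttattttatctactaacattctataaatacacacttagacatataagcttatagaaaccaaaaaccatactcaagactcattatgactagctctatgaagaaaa
AT3G52748, chr3:19548722-19549021, plus strand: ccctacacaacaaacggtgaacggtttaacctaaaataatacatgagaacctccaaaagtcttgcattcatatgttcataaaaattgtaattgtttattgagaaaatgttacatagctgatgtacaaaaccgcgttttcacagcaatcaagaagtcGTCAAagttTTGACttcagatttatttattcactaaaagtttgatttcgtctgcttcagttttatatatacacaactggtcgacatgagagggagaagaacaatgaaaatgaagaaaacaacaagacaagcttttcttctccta
AT4G02845, chr4:2507862-2508161, minus strand: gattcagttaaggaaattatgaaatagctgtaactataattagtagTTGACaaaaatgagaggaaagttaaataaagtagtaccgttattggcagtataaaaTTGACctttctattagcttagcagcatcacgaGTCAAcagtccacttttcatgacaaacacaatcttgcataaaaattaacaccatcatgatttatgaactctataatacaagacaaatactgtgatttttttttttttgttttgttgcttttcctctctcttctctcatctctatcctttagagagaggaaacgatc
AT3G00260, chr3:2579377-2579676, plus strand: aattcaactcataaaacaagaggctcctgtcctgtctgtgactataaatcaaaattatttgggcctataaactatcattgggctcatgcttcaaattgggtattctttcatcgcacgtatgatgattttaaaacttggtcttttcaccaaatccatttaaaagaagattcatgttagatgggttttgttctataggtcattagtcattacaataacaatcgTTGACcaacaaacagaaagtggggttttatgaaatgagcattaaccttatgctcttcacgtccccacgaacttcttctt
AT3G05905, chr3:1760655-1760954, plus strand: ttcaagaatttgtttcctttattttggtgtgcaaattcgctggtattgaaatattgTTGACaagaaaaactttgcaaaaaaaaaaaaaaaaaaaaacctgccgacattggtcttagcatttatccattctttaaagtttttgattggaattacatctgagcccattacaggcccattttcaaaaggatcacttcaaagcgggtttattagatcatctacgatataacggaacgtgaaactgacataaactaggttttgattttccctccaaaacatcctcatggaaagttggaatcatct
The core occurs 2 times in the window of AT3G00390 and of AT3G52748, 3 times in that of AT4G02845, 1 time in that of each locus that fell, and not in that of AT5G00585.

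On either strand, TTGAC was present in the windows of 28 of the 48 loci that rose (58.3%) and of 11 of the 29 that fell (37.9%). It was present in 47.9% of the 704 windows of tested loci on the nuclear chromosomes and in 49.5% of 37897 windows of annotated nuclear genes. CACGTG, the G-box, was found at 1 of 48 loci that rose (2.08%) and 3 of 29 that fell (10.3%), against 3.98% of tested loci and 6.46% of genes. TGTCTC, the core of auxin response elements, was found at 11 of 48 (22.9%) and 3 of 29 (10.3%), against 14.3% of tested loci and 14.2% of genes. No 2 of these matches overlapped in the 6 windows printed. A match describes the letters only, and no binding was measured.

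The smallest p belonged to AT5G00585, a transcribed region of 1622 nt (chr5:17958305-17959926, plus strand) that overlaps no coding exon. AT5G00585 in proscoop12 stood at 421, 476 and 417 CPM with SCOOP12, against 67.5, 87.8 and 90.2 CPM in controls. AT5G00585 in Ws stood at 557 and 460.4 CPM with SCOOP12, against 104, 125 and 89 CPM in controls. All 5 treated libraries lay above all 6 controls, and the locus rose 5-fold (log2 fold change 2.32, SE 0.15, edgeR adjusted p 4.68e-11). The nearest coding gene is 1093 nt away, PROSCOOP12 lies 24600 nt away, and the listed lncRNA AT5G06585, which lies within AT5G00585 on the same strand, had 0 reads in MEZ.

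Around PROSCOOP12, 8 noncoding loci are listed within 50000 nt, of which 2 were tested and both rose (10.9% of all tested loci were called). Besides AT5G00585 this was AT5G44562, a lncRNA of 696 nt with 80.5% of its length opposite the vacuolar sorting gene VPS2.2, and both were picked out after their values were seen. AT5G44562 lay at 20.3 to 46.2 CPM with SCOOP12 and at 2.93 to 16.9 CPM in controls, without overlap (log2 fold change 1.18, SE 0.34, edgeR adjusted p 0.0273). The 6 other loci near PROSCOOP12 had at most 5 reads over all MEZ libraries. Among them AT5G06595, which overlaps the PROSCOOP12 gene, had 5 reads with SCOOP12 and 0 in controls.

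AT3G00390, a spliced region of 548 nt (chr3:7521943-7522597, plus strand), had the largest fold change. AT3G00390 in proscoop12 stood at 0, 283 and 127 CPM with SCOOP12, against 0, 2.88 and 8.54 CPM in controls. AT3G00390 in Ws stood at 103 and 140.4 CPM with SCOOP12, against 0, 2.76 and 1.82 CPM in controls. The 3 replicate 1 libraries, 1 of them treated, held 0 reads, so the rise rests on replicates 3 and 4. There were 296 reads with SCOOP12 against 9 in controls in proscoop12, a ratio of 33.6 (95% interval from counting 17.5 to 74.3). In Ws there were 149 reads with SCOOP12 against 3 in controls, a ratio of 78.2 (26.2 to 384). The Ws controls include replicate 1, which held 0 reads and has no treated Ws library of its number, and this raises the Ws ratio. The ratios of the genotypes therefore cover unlike sets of replicates. These intervals cover counting error only. Over both genotypes the locus passed (log2 fold change 5.19, SE 0.39, edgeR adjusted p 3.4e-09).

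AT3G52748, an ncRNA of 436 nt (chr3:19548972-19549589, plus strand), ends 15 nt from FTSZ2-2, a gene of plastid division. AT3G52748 in proscoop12 stood at 1053, 774 and 1221 CPM with SCOOP12, against 228, 115 and 462 CPM in controls. AT3G52748 in Ws stood at 758 and 1379 CPM with SCOOP12, against 272, 132 and 387 CPM in controls. It rose 4.27-fold with no overlap between the treatments (log2 fold change 2.09, SE 0.17, edgeR adjusted p 3.61e-09), and within the controls replicate 4 was highest and replicate 3 lowest in both genotypes. AT4G02845, a region of 1084 nt (chr4:2506828-2507911, minus strand), was higher as well. AT4G02845 in proscoop12 stood at 279, 603 and 585 CPM with SCOOP12, against 101, 122 and 163 CPM in controls. AT4G02845 in Ws stood at 411 and 528 CPM with SCOOP12, against 111, 192 and 168.9 CPM in controls. Again no treated library reached down to a control (log2 fold change 1.64, SE 0.16, edgeR adjusted p 8.42e-08), and the treated proscoop12 replicate 1 was the lowest of the 5.

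AT1G09235 (880 nt, chr1:13281163-13282042, minus strand) and AT1G08687 (570 nt, chr1:23963486-23964372, minus strand) also lie apart from coding exons. AT1G09235 in proscoop12 stood at 335, 845 and 634 CPM with SCOOP12, against 238, 263 and 251 CPM in controls. AT1G09235 in Ws stood at 698 and 540.4 CPM with SCOOP12, against 227, 345 and 197.9 CPM in controls. The treated replicate 1 of proscoop12 fell within the range of the controls, while the other 4 treated libraries were above it (log2 fold change 1.16, SE 0.17, edgeR adjusted p 3.59e-05). AT1G08687 in proscoop12 stood at 114, 221 and 242.2 CPM with SCOOP12, against 78.7, 87.8 and 90.2 CPM in controls. AT1G08687 in Ws stood at 214 and 194 CPM with SCOOP12, against 46.8, 110.3 and 79.9 CPM in controls. Here the same library was the lowest of the treated ones and still just above the highest control (log2 fold change 1.14, SE 0.17, edgeR adjusted p 5.16e-05).

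**Figure D1:**
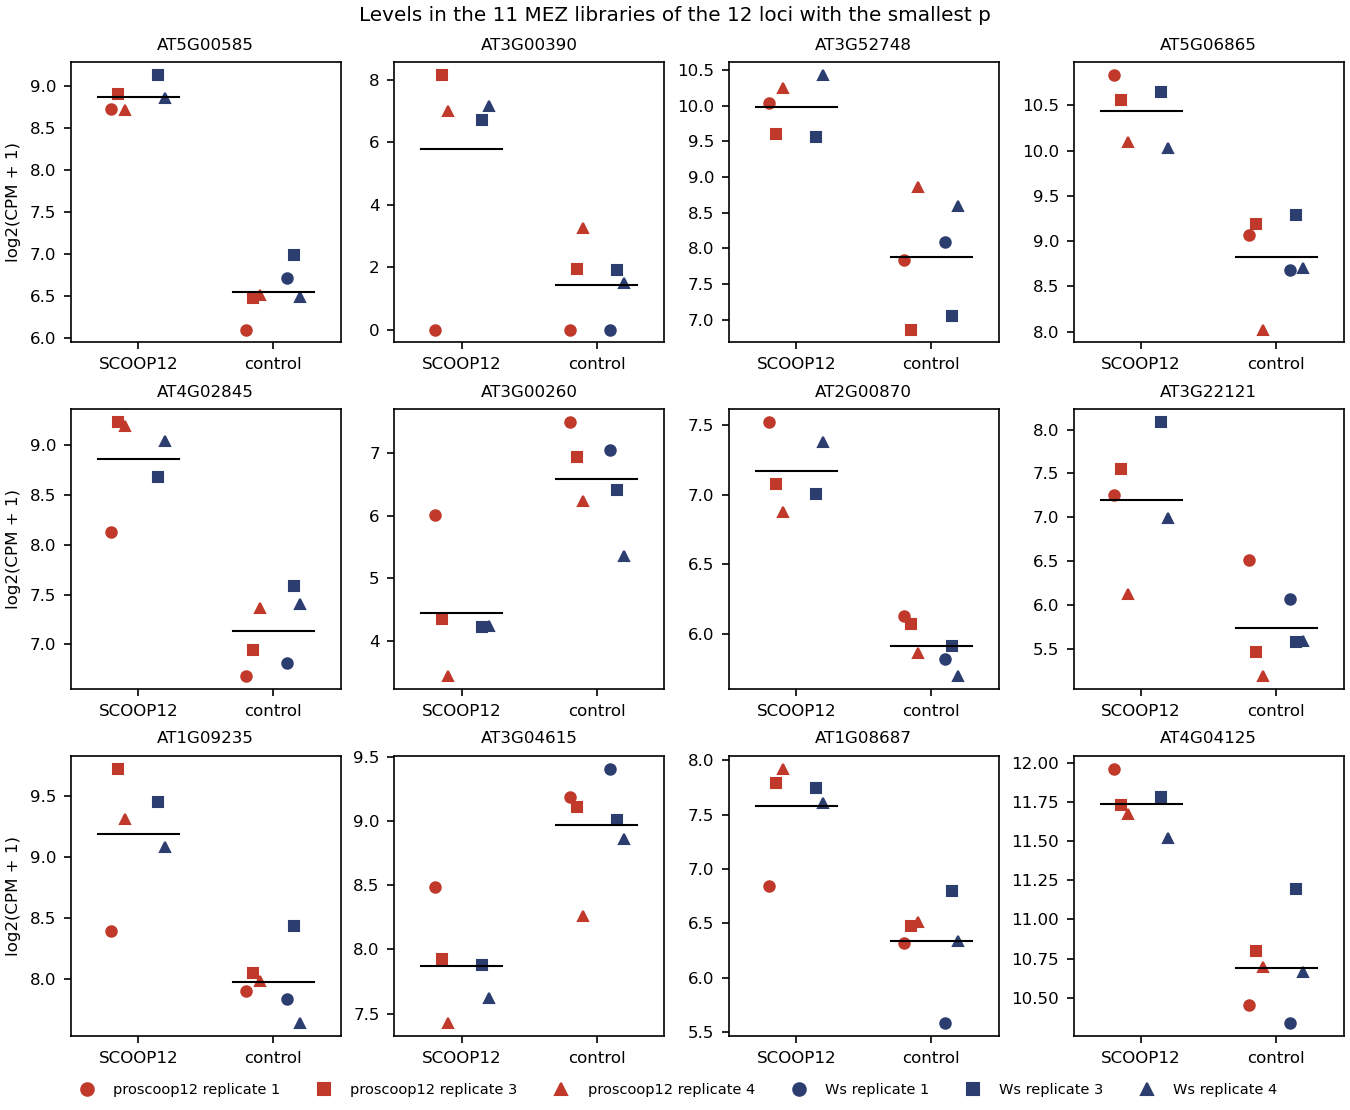
Levels of the 12 loci with the smallest p in the 11 MEZ libraries, as log2(CPM + 1) on a separate axis for each locus. Points are libraries, coloured by genotype and shaped by replicate number, and the black line is the mean of the 5 SCOOP12 libraries (left) or the 6 controls (right). 10 loci are higher with SCOOP12, AT3G00260 and AT3G04615 are lower, and the treated proscoop12 replicate 1 of AT3G00390 is at 0.

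Other loci without a coding exon rose with larger p than those above. AT1G06983, a lncRNA, spanned 159.9 to 268 CPM with SCOOP12 (median 239.8, n = 5) against 101 to 171.96 CPM in controls (median 119.6, n = 6) and rose by 0.83 (SE 0.16, edgeR adjusted p 0.000947). AT5G09575, with few reads (70 with SCOOP12 against 18 in controls), spanned 11.1 to 42.7 CPM with SCOOP12 (median 14.9, n = 5) against 0 to 7.2 CPM in controls (median 4.63, n = 6) and rose without overlap (log2 fold change 2.14, SE 0.51, edgeR adjusted p 0.00765), a call that was lost without Ws SCOOP12 replicate 4 (adjusted p 0.0652). The annotated ncRNAs AT3G61198, AT1G66173, AT1G69252 and AT2G21188 changed by 1.01, 1.30, 0.71 and 1.35 on the log2 scale, all past the threshold. In AT3G61198 and AT1G69252 the treated proscoop12 replicate 1, at 61.0 and 321 CPM, was the lowest of the 5 treated libraries and lay inside the range of the controls. AT1G66173 and AT2G21188 overlapped too, with the lowest treated libraries at 67.7 and 13.5 CPM and the highest controls at 143 and 26.8 CPM. AT2G21188 is 98.0% identical to part of the coding transcript AT2G21185, so reads could be shared between them.

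Natural antisense RNAs made up much of the rest. Their values are uncertain, because the strand that was counted is not given and reads of the coding partner could count there. Of the 341 tested loci that lie opposite a coding exon and on none of the same strand, 17 rose and 17 fell (9.97% called, median log2 fold change -0.07). Of the 288 that touch no coding exon, 28 rose and 9 fell (12.8%, median 0.06). Of the 80 with a coding exon on the same strand, 3 rose and 3 fell (7.5%, median -0.07). All tested loci stood at 10.9% and a median of -0.04.

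AT5G06865 (1402 nt, chr5:2132197-2133746, minus strand) overlaps PGIP1, whose protein blocks the pectin-cleaving polygalacturonases of fungi, antisense over 73.4% of its length. AT5G06865 in proscoop12 stood at 1826, 1504 and 1090.4 CPM with SCOOP12, against 534, 582 and 259 CPM in controls. AT5G06865 in Ws stood at 1605 and 1045 CPM with SCOOP12, against 409.8, 623 and 416 CPM in controls. Every treated library was above every control, and replicate 4 was the lowest treated library in both genotypes (log2 fold change 1.64, SE 0.16, edgeR adjusted p 8.42e-08). AT2G00870 (3992 nt, chr2:14735982-14740065, plus strand) has 68.8% of its length opposite AT2G34930, a leucine-rich repeat gene of a disease resistance family. AT2G00870 in proscoop12 stood at 182.9, 134 and 116 CPM with SCOOP12, against 68.9, 66.2 and 57.3 CPM in controls. AT2G00870 in Ws stood at 128 and 165 CPM with SCOOP12, against 55.6, 59.3 and 50.8 CPM in controls. The controls were tight, at 59.7 ± 6.76 CPM (SD, n = 6), and the lowest treated library was at 116 CPM (log2 fold change 1.30, SE 0.17, edgeR adjusted p 1.51e-05).

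AT3G22121 (1371 nt, chr3:7794956-7796326, plus strand) lies wholly opposite CWLP, which encodes a linker of cell wall and plasma membrane. AT3G22121 in proscoop12 stood at 152, 186.7 and 68.6 CPM with SCOOP12, against 89.995, 43.2 and 35.4 CPM in controls. AT3G22121 in Ws stood at 271 and 126 CPM with SCOOP12, against 65.9, 46.9 and 47.2 CPM in controls. It rose (log2 fold change 1.62, SE 0.22, edgeR adjusted p 1.94e-05), and 1 treated library, proscoop12 replicate 4, lay below 1 control, proscoop12 replicate 1. AT4G03985, wholly opposite a chitinase family gene (AT4G01700, of the enzymes that cleave fungal cell walls), spanned 79.2 to 182.9 CPM with SCOOP12 (median 85.4, n = 5) against 24.4 to 77.6 CPM in controls (median 49.5, n = 6) and rose without overlap (log2 fold change 1.24, SE 0.21, edgeR adjusted p 0.000183). AT5G02895, opposite the lectin-type gene AT5G18470, spanned 92.4 to 111 CPM with SCOOP12 (median 98, n = 5) against 26.7 to 55.1 CPM in controls (median 45.6, n = 6) and rose without overlap (log2 fold change 1.21, SE 0.20, edgeR adjusted p 0.000183). AT1G07128, opposite the telomere protection gene STN1, spanned 396 to 505 CPM with SCOOP12 (median 421, n = 5) against 216 to 326 CPM in controls (median 264, n = 6), also without overlap (log2 fold change 0.81, SE 0.14, edgeR adjusted p 0.000295). AT5G65575, of which only 5.02% is opposite a coding exon, rose by 0.76 (SE 0.17, edgeR adjusted p 0.00378).

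Lists of antisense loci were formed by words in the RefSeq name of the partner gene, such as disease resistance, chitin or polygalacturonase inhibit for immunity and dirigent, polygalacturonase or pectin for the cell wall. The words miss some partners, among them the defensin-like gene opposite AT4G22233, CWLP and XYL4, so the counts are those of the words only. Of 14 tested loci in the immune list, 3 rose (those opposite PGIP1, AT2G34930 and the chitinase gene) and 2 fell, a share of 35.7% with a median of 0.03. The 2 that fell lie opposite dirigent-like genes, named as disease resistance-responsive, of a family known for guiding the coupling of lignin and lignan precursors. Of 8 loci in the cell wall list 1 rose and 2 fell (37.5%, median -0.48), and these 3 are also in the immune list. Of 8 in the redox list 1 rose (12.5%, median -0.04), and of 4 in the hormone list 1 fell (25%, median -0.21). The share over all tested loci was 10.9%. No test was made of these short lists. Their words were chosen with earlier results of these data known, so the shares describe the lists only. Their median levels were 107.5 CPM (immune), 103.8 CPM (cell wall), 43.4 CPM (redox) and 17.4 CPM (hormone), beside 38.8 CPM over all tested loci. Median lengths were 1964, 1086, 875 and 657 nt in that order, beside 649 nt. Loci that rose and loci that fell had median levels of 119.7 and 122.1 CPM. The part of level and length in these shares was not tested.

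The largest fall was that of AT4G22233, a lncRNA of 897 nt with 55.9% of its length opposite a defensin-like gene (defensins are small antimicrobial proteins). It had 22 reads with SCOOP12 against 131 in controls. It spanned 1.4 to 11.1 CPM with SCOOP12 (median 7.33, n = 5) against 23.4 to 41.5 CPM in controls (median 29.3, n = 6) and fell without overlap (log2 fold change -2.30, SE 0.40, edgeR adjusted p 0.000295). AT3G00260 (404 nt, chr3:2579627-2580030, plus strand) touches no coding exon. Its nearest coding gene is the zinc finger gene AT3G08505, 47 nt away on the right. MYB83, a regulator of secondary wall formation, lies 1351 nt away on the left. AT3G00260 in proscoop12 stood at 63.7, 19.4 and 9.8 CPM with SCOOP12, against 180.0, 121 and 74.4 CPM in controls. AT3G00260 in Ws stood at 17.6 and 17.8 CPM with SCOOP12, against 132, 84.1 and 39.9 CPM in controls. In each pair of one genotype and number the treated library was lower (log2 fold change -2.01, SE 0.24, edgeR adjusted p 1.95e-06). The ranges overlap through the treated proscoop12 replicate 1 and the Ws control replicate 4.

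Among antisense loci that fell, AT3G04615 (832 nt, chr3:8678704-8679535, minus strand) lies with 95.9% of its length opposite the dirigent-like gene AT3G24020. AT3G04615 in proscoop12 stood at 358, 241.97 and 170.8 CPM with SCOOP12, against 581, 550.0 and 305 CPM in controls. AT3G04615 in Ws stood at 235 and 196 CPM with SCOOP12, against 678, 514 and 463 CPM in controls. Treated proscoop12 replicate 1 overlapped control replicate 4 of the same genotype, and every pair fell (log2 fold change -1.01, SE 0.15, edgeR adjusted p 4.95e-05). AT4G06135, wholly opposite another dirigent-like gene, AT4G13580, spanned 42 to 114 CPM with SCOOP12 (median 70.5, n = 5) against 75.6 to 203 CPM in controls (median 128, n = 6) and fell too (log2 fold change -0.92, SE 0.20, edgeR adjusted p 0.00415). AT3G05905, opposite the neurofilament-like gene AT3G05900, spanned 176 to 287 CPM with SCOOP12 (median 203, n = 5) against 337 to 534 CPM in controls (median 458, n = 6) with no overlap (log2 fold change -1.07, SE 0.16, edgeR adjusted p 6.31e-05). AT1G76878, opposite a homeodomain-like gene, spanned 137 to 209 CPM with SCOOP12 (median 170.1, n = 5) against 215 to 372 CPM in controls (median 342, n = 6) and fell without overlap (log2 fold change -0.88, SE 0.15, edgeR adjusted p 0.000241).

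AT4G13505, opposite AMT1;1, an importer of ammonium in roots, spanned 242.01 to 858 CPM with SCOOP12 (median 354, n = 5) against 456 to 997 CPM in controls (median 693, n = 6) (log2 fold change -0.74, SE 0.16). AT5G64572, opposite the beta-xylosidase gene XYL4, changed by -0.66 (SE 0.18), and AT5G09595, opposite GMD1 of GDP-fucose synthesis, by -0.59 (SE 0.16). AT5G09595 shares 25.8% of its length with an exon of AT5G66290 on its own strand. AT2G30362, opposite the kinase gene SIP4, changed by -0.54, AT4G06685, opposite an auxin-responsive gene, by -0.77, AT3G01995, opposite AT3G07510, by -1.24 and AT2G08695, opposite a root hair specific gene, by -1.83. Their edgeR adjusted p ranged from 0.00382 (AT4G13505) to 0.018 (AT2G08695) over these 7 loci. AT4G06685 and AT2G30362 no longer passed when Ws SCOOP12 replicate 3 or 4 was left out (edgeR adjusted p 0.0533 to 0.0679). AT5G09595 no longer passed without replicate 3 or 4 of the treated libraries of either genotype (0.0520 to 0.0758). AT5G64572 and AT2G08695 no longer passed without Ws SCOOP12 replicate 3 or proscoop12 control replicate 3 (0.0818 to 0.114), and AT2G08695 neither without proscoop12 SCOOP12 replicate 3 (0.0520).

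Of loci without a coding exon, AT1G08865 changed by -1.11 and AT1G19968 by -0.93 (SE 0.21 and 0.18), the second without overlap. AT1G08283 changed by -0.64, and AT3G00910, which shares 0.16% of its length with an exon of SIGC on its own strand, by -0.98. AT5G09735 and AT5G09745, 2319 nt apart on chromosome 5, changed by -1.66 and -1.76 (edgeR adjusted p 0.01 and 0.00742). AT5G09745 had 50 reads with SCOOP12 against 216 in controls, and its replicate 1 pair in proscoop12 went the other way. AT5G09735 did not pass without proscoop12 control replicate 4 (edgeR adjusted p 0.0785). AT1G08283 did not pass without any 1 of Ws SCOOP12 replicates 3 and 4, Ws control replicate 3, proscoop12 SCOOP12 replicate 3 and proscoop12 control replicate 4 (0.0522 to 0.0758).

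**Figure D2:**
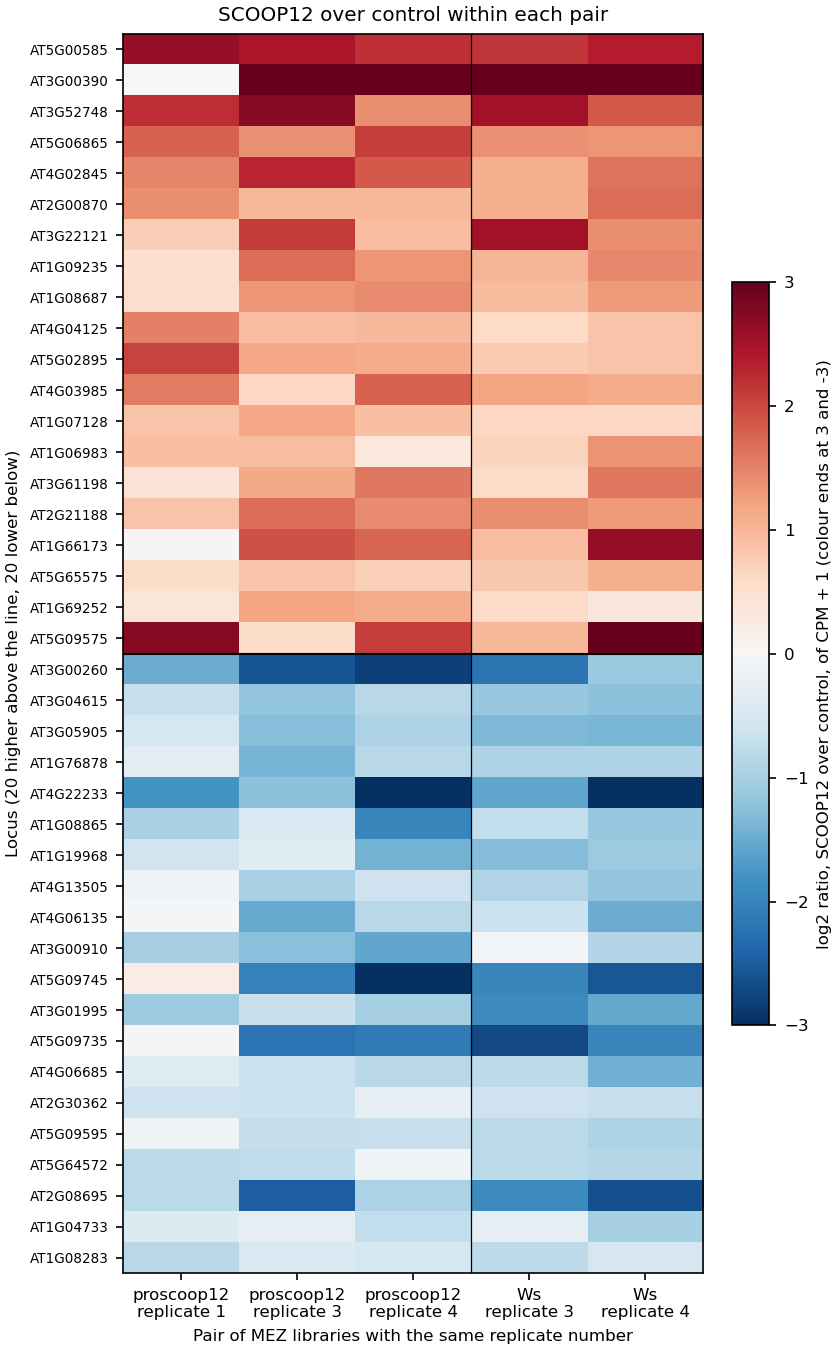
Log2 ratio of SCOOP12 over control, from CPM + 1, in the 5 pairs of MEZ libraries with one genotype and one replicate number, for the 20 loci that rose and the 20 that fell with the smallest p. Red is higher with SCOOP12 and blue lower, with the colour scale ending at 3 and -3. The median over the 20 loci that rose is 0.88 in the proscoop12 replicate 1 pair and higher, up to 1.40, in the other 4 pairs.

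By RNA class, 16 of 96 tested loci annotated as ncRNA rose and 2 fell (18.8%, median 0.22). Over all tested loci 10.9% were called, with a median of -0.04. Of 105 misc_RNAs 10 rose and 6 fell (15.2%), and of 415 lncRNAs 19 rose and 20 fell (9.4%, median -0.07). Median levels were 64.7 CPM in ncRNAs, 42.0 CPM in misc_RNAs and 34.7 CPM in lncRNAs, and their part in these shares was not tested. Small nuclear, small nucleolar and antisense_RNA classes held 1 fall among 22 loci, 1 rise (AT1G06033, 0.87) among 28 and 0 calls among 11. None of 12 loci of nuclear ribosomal DNA or 5 organellar loci passed over both genotypes in edgeR.

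Of 15 miRNA precursors tested, AT4G04125 (MIR2936) and AT1G09473 (MIR415, log2 fold change 0.74) rose and 0 fell (13.3%, beside 10.9% of all tested loci). Both lie wholly within an exon of a coding gene on the same strand, so reads of that gene may count there. AT4G04125 (180 nt, chr4:1046804-1046983, minus strand) is inside SAG21, a gene for a late embryogenesis abundant protein linked to oxidative stress. AT4G04125 in proscoop12 stood at 3993, 3404 and 3271 CPM with SCOOP12, against 1403, 1782 and 1656 CPM in controls. AT4G04125 in Ws stood at 3527 and 2942 CPM with SCOOP12, against 1292, 2342 and 1625 CPM in controls. All treated libraries were above all controls (log2 fold change 1.02, SE 0.16, edgeR adjusted p 6.2e-05). Of 5 tested precursors of trans-acting siRNAs, which guide the silencing of other transcripts, 0 passed in edgeR (median -0.03). The small nuclear RNA AT1G04733 (U2.11) fell (log2 fold change -0.54, SE 0.15, edgeR adjusted p 0.0191) and lies with 98.9% of its length in an exon of AT1G09800. It did not pass without replicate 4 of Ws SCOOP12 (0.127), of proscoop12 SCOOP12 (0.0521) or of proscoop12 controls (0.0639).

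How alike the genotypes respond was examined first by testing each in a fit of the 4 MEZ groups with replicate number as a block. In proscoop12, 28 loci passed (3.95% of 709), 21 higher and 7 lower. In Ws, where only replicates 3 and 4 were treated, 18 passed (2.54%), 11 higher and 7 lower. Both lists share 13 loci, which is 46.4% of the proscoop12 list and 72.2% of the Ws list, and all 13 had the same sign. The proscoop12 count was 43 without its SCOOP12 replicate 1, 18 without its control replicate 3, 17 without its SCOOP12 replicate 3, and 16 without replicate 4 of either. The Ws count was 10 without control or SCOOP12 replicate 3, 6 without SCOOP12 replicate 4 and 11 without proscoop12 control replicate 1. All 77 loci that passed over both genotypes had one sign in both, which follows in part from choosing them on the pooled response. The 48 loci that rose had a median of 0.89 in proscoop12 and 0.85 in Ws, and the 29 that fell of -0.67 in proscoop12 and -1.01 in Ws.

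The difference of the responses, proscoop12 minus Ws, passed at 0 of 709 loci (0.0%) in edgeR and at 0 in DESeq2, with 12 at an unadjusted p under 0.05 in edgeR and 6 in DESeq2. For AT5G00585 the difference was 0.21 with a 95% interval of -0.42 to 0.84. For AT3G52748 it was -0.03 with a 95% interval of -0.76 to 0.71, for AT5G06865 0.22 with a 95% interval of -0.46 to 0.91 and for AT4G02845 0.53 with a 95% interval of -0.12 to 1.18. Over the 77 loci the median half-width of such an interval was 0.79 and the smallest 0.59. These intervals hold for single loci and are not adjusted over the 709 loci. A genotype difference has to be larger than its half-width to pass after adjustment, so differences of this size could be missed. The interval excluded 0 at 1 of the 77, AT1G67105.

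AT1G67105, an ncRNA of 786 nt (chr1:25057479-25058264, plus strand), lies between LBD40 and CYP735A2, a cytochrome P450 of cytokinin synthesis. AT1G67105 in proscoop12 stood at 2.71, 74.7 and 53.2 CPM with SCOOP12, against 0, 8.64 and 2.44 CPM in controls. AT1G67105 in Ws stood at 11.7 and 24.9 CPM with SCOOP12, against 2.93, 20.7 and 10.9 CPM in controls. The rise was in proscoop12 replicates 3 and 4, while the Ws libraries of both treatments overlapped. Its change was 3.50 (SE 0.60, edgeR adjusted p 0.000697) in proscoop12 and 0.07 (SE 0.58, adjusted p 0.977) in Ws. The difference, 3.44 (SE 0.88), did not pass over all loci (edgeR adjusted p 0.208), nor did that of AT2G03875 (-3.02, SE 0.74, the same adjusted p), a stretch of ribosomal DNA. AT2G03875 passed in Ws (2.31, SE 0.58, adjusted p 0.0339) and stood at -0.71 (SE 0.47) in proscoop12, and it did not pass over both genotypes. AT5G45475, next by p, had reads in 3 libraries only: 9 in control replicate 1 and 7 in control replicate 3 of proscoop12, and 17 in SCOOP12 replicate 4 of Ws. Without Ws SCOOP12 replicate 4 the differences at AT1G67105 (4.44) and AT2G03875 (-3.69) passed, both at an edgeR adjusted p of 0.0473. Without proscoop12 control replicate 3 those at AT2G03875 (0.0138) and AT5G45475 (0.0120) passed, and without Ws SCOOP12 replicate 3 that at AT5G45475 alone (0.00368). Over both genotypes, the call of AT1G67105 was lost without Ws SCOOP12 replicate 4 and without replicate 3 or 4 of either proscoop12 group (0.0650 to 0.187).

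Loci that passed in 1 genotype only numbered 15 in proscoop12 and 5 in Ws. Among the 10 with the smallest p, AT4G04125, AT5G02895, AT1G07128, AT4G03985, AT1G69252 and AT3G61198 rose in proscoop12, with Ws changes of 0.84, 0.91, 0.60, 1.17, 0.45 and 0.84 that did not pass there. AT3G00910 and AT4G22233 fell in proscoop12, with Ws changes of -0.52 and -2.43. AT1G19968 fell in Ws (-1.16), with -0.76 in proscoop12. AT1G67105 is the tenth. Except for AT1G67105, the unadjusted p of the difference was at least 0.103 for these loci, so a difference between genotypes was not shown for them.

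Fits on each genotype alone share no library. The proscoop12 libraries alone gave 16 calls among 590 loci (2.71%), 12 higher and 4 lower. Of these 12, 11 were also higher in the Ws libraries, with a median of 1.18, and all 4 lower loci were lower in Ws, with a median of -1.26. The Ws libraries alone, with 1 residual degree of freedom, gave 64 calls among 604 loci (10.6%), 38 higher and 26 lower. In the proscoop12 libraries 35 of the 37 higher loci tested were also higher (median 0.70) and 26 of 26 lower loci were lower (median -0.56). Over all 561 loci tested in both fits, 49.0% were higher in proscoop12 and 48.7% in Ws, and 72.9% had one sign in both.

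**Figure D3:**
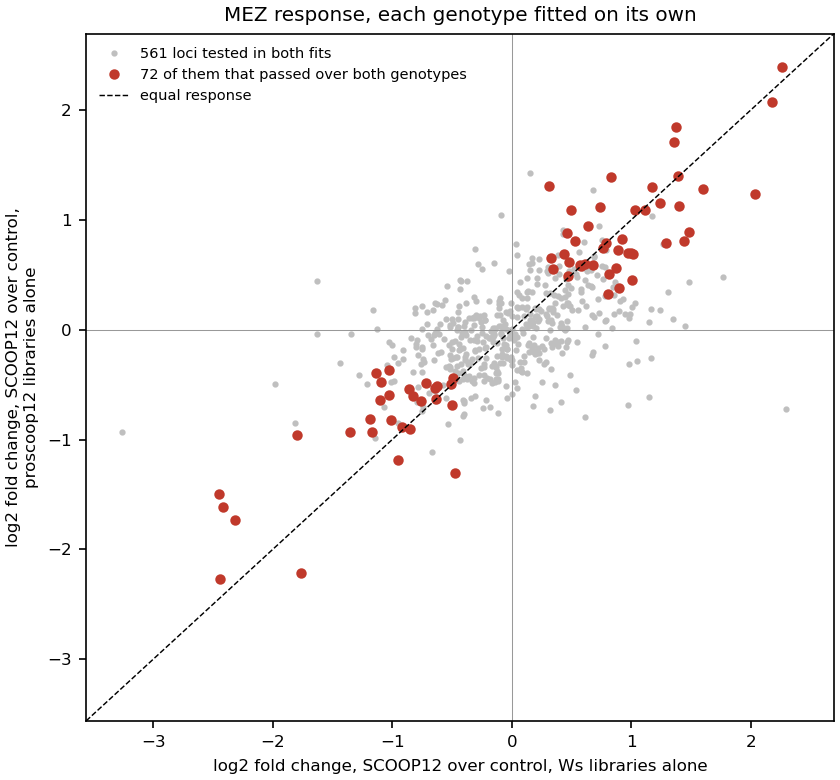
Log2 fold change of SCOOP12 over control in MEZ, in the proscoop12 libraries alone (vertical axis) and in the Ws libraries alone (horizontal axis), for the 561 loci tested in both fits. Red points are the 72 of these that passed over both genotypes, and the dashed line marks equal responses. All 72 red points lie where both changes have one sign, which follows in part from choosing them on the pooled response.

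The zones were compared in a fit of all 22 libraries. For 2 DZ libraries of replicate 3 the names of the deposited files give another group than the labels: the library labelled proscoop12 DZ control is named as Ws DZ SCOOP12, and the library labelled Ws DZ SCOOP12 as proscoop12 DZ control. The labels were kept. The response in MEZ minus that in DZ passed at 77 of 844 loci (9.12%), at 44 with both libraries left out and at 15 with their labels exchanged. Leaving out 1 library moved the count most for replicate 4 of Ws DZ controls (32) and of Ws MEZ SCOOP12 (41). It gave 43 to 51 without replicate 3 of Ws MEZ SCOOP12, Ws MEZ control, Ws DZ SCOOP12, Ws DZ control or proscoop12 MEZ SCOOP12, and 47 and 49 without replicate 4 of proscoop12 MEZ controls and of proscoop12 DZ SCOOP12. Of the 77 loci that respond in MEZ, 26 passed, 16 that rose and 10 that fell, and in each the MEZ response was the more extreme in its own direction, as their choice by the MEZ response favours. Of these 26, 18 passed with both libraries left out and 13 with the labels exchanged. In DZ the 48 loci that rose in MEZ had a median of 0.09 and the 29 that fell of -0.06, beside 0.05 over all loci. In controls, the DZ level over the MEZ level had a median log2 ratio of 1.23 at the 48 loci that rose in MEZ, of -0.98 at the 29 that fell and of -0.05 over all 844 loci. The MEZ controls enter both this ratio and the response to SCOOP12, and 1 of the 5 DZ controls is a library whose file name disagrees with its label. Its part in the MEZ response was not tested.

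AT3G52748 and AT4G02845 rose in MEZ, and a change in DZ was not detectable. The response of AT3G52748 was 2.08 (SE 0.20) in MEZ and -0.26 (SE 0.20) in DZ, and the difference was 2.34 (SE 0.28, edgeR adjusted p 1.05e-05). In DZ controls AT3G52748 averaged 1185 CPM in proscoop12 and 1154 CPM in Ws. All DZ levels given here are CPM from the fit of 22 libraries, with its own tested loci and TMM scaling. They are therefore not on the scale of the MEZ levels given above. The response of AT4G02845 was 1.59 (SE 0.14) in MEZ and 0.05 (SE 0.13) in DZ, a difference of 1.54 (SE 0.19, edgeR adjusted p 1.36e-05), with DZ control means of 493 CPM in proscoop12 and 576 CPM in Ws.

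At other named loci the MEZ and DZ estimates had opposite signs. AT3G04615, opposite a dirigent-like gene, changed by -1.05 (SE 0.21) in MEZ and 1.75 (SE 0.28) in DZ, a difference of -2.79 (SE 0.35, edgeR adjusted p 1.36e-05), and the DZ rise passed on its own (edgeR adjusted p 0.000176). AT4G06135, opposite the other dirigent-like gene, changed by -0.96 (SE 0.24) in MEZ and 1.44 (SE 0.34) in DZ, a difference of -2.39 (SE 0.42, edgeR adjusted p 0.000897) that did not pass with the labels exchanged (adjusted p 0.0907). Both antisense loci of dirigent-like genes were lower with SCOOP12 in MEZ and higher in DZ.

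The signs were the other way at AT4G03585, opposite CYP86A2, a cytochrome P450 of cutin synthesis. The estimates for AT4G03585 were 0.90 (SE 0.30) in MEZ, which did not pass in the fit of 22 libraries (edgeR adjusted p 0.0693), and -2.07 (SE 0.26) in DZ, a difference of 2.97 (SE 0.40, edgeR adjusted p 3.43e-05). AT2G14878, between coding genes, changed by 0.47 (SE 0.13) in MEZ and -0.86 (SE 0.13) in DZ, a difference of 1.33 (SE 0.19, edgeR adjusted p 4.83e-05). AT5G48412, 91 nt from the glutamate receptor gene GLR1.3, changed by 0.51 (SE 0.15) in MEZ and -0.55 (SE 0.14) in DZ, and this difference did not pass with the labels exchanged (adjusted p 0.0937). AT3G00260 had -1.95 (SE 0.29) in MEZ and 0.97 (SE 0.34) in DZ, where it did not pass (edgeR adjusted p 0.0724). AT1G76878 had -0.90 (SE 0.17) in MEZ and 0.33 (SE 0.18) in DZ, where it did not pass either (0.263). AT5G09595 changed by -0.62 (SE 0.18) in MEZ and 0.70 (SE 0.21) in DZ, and the differences at these 3 loci passed. The MEZ calls of AT4G03585, AT2G14878 and AT5G48412 were lost without any 1 of proscoop12 control replicates 3 and 4, proscoop12 SCOOP12 replicate 3 and Ws SCOOP12 replicate 4 (edgeR adjusted p 0.0506 to 0.140). Those of AT2G14878 and AT5G48412 were also lost without Ws SCOOP12 replicate 3 or proscoop12 SCOOP12 replicate 4 (0.0536 to 0.0810).

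For AT5G00585 a difference between zones was not shown, with 2.30 (SE 0.18) in MEZ and 2.39 (SE 0.21) in DZ and a difference of -0.09 (SE 0.26, edgeR adjusted p 0.912), and its DZ controls averaged 23.8 CPM in proscoop12 and 32.4 CPM in Ws. AT3G22121, opposite CWLP, changed by 1.65 (SE 0.24) in MEZ and 3.01 (SE 0.39) in DZ, and the difference did not pass (edgeR adjusted p 0.0824). The organellar share of reads differed far more between libraries in DZ than in MEZ. With SCOOP12 it was 19.7% to 25.2% in DZ replicates 3 and 4, below the 36.1% to 43.9% of DZ controls. In DZ SCOOP12 replicate 1 it was 46.9% in Ws and 38.2% in proscoop12. The 2 libraries with disagreeing names held 20.3% (labelled Ws SCOOP12) and 38.5% (labelled proscoop12 control). The part of the organellar share in the DZ values was not tested.

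**Figure D4:**
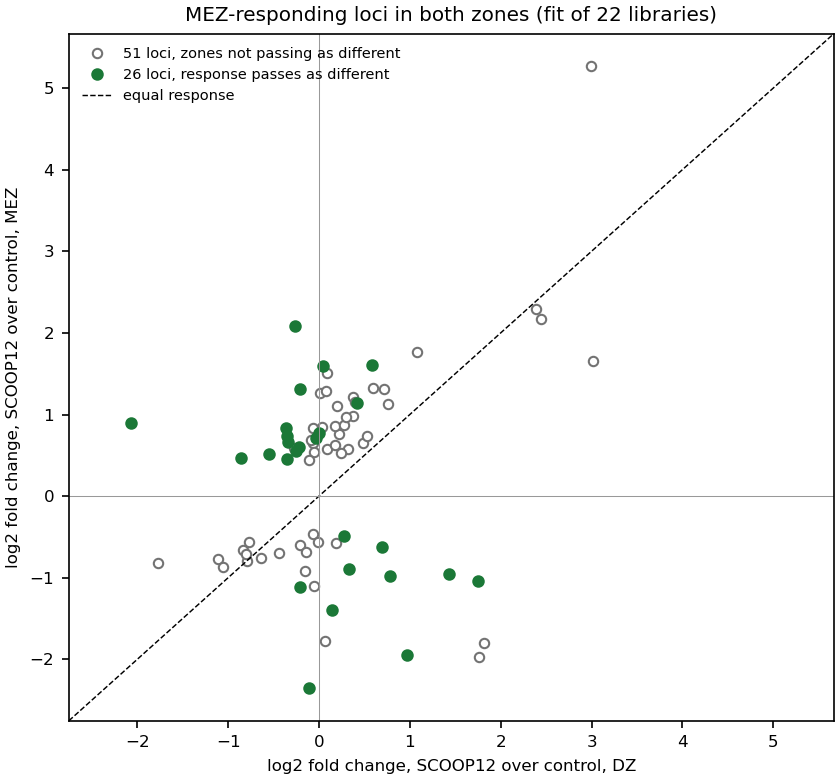
Log2 fold change of SCOOP12 over control in MEZ (vertical axis) and in DZ (horizontal axis) for the 77 loci that respond in MEZ, from the fit of 22 libraries. Filled points are the 26 loci where the difference between zones passed, open points the other 51, and the dashed line marks equal responses. Most points lie near 0 on the DZ axis, and AT5G00585 and AT3G22121 are among the few near or beyond 2 there.

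Call counts depended on single libraries. Without proscoop12 SCOOP12 replicate 1, which stands apart, 101 loci passed, 60 higher and 41 lower, and 43 in proscoop12. Without Ws SCOOP12 replicate 3 the count was 50, without Ws SCOOP12 replicate 4 it was 47, and without proscoop12 SCOOP12 replicate 3 it was 50. Replicates 1 and 3, of one sequencing run by the file names, gave 53 loci (29 higher, 24 lower). Replicate 4, of the other run, holds 1 library of each genotype and treatment, so a count from it alone is not given. Without the replicate number as a block 27 loci passed, 18 higher and 9 lower, all 27 among the 77.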

How the data were processed

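The files hold, for each library and noncoding transcript, estimated counts of reads and TPM as the authors deposited them. Per the submitters' processing notes Salmon and DESeq2 were used. The sources used here give no version, genome build or strand setting for that counting, although per the labels' protocols the libraries came from a stranded mRNA kit. The deposited TPM values were not used for any test. In MEZ 1.28% to 1.88% of the estimated counts were fractional, and all were rounded.

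Libraries were grouped by their labels. Loci were kept by filterByExpr (minimum count 10, minimum total 15), scaled by TMM and tested with edgeR 4.0.16 (quasi-likelihood F test, limma 3.58.1, R 4.3.3) with Benjamini-Hochberg adjustment over all tested loci at 0.05. SE is the absolute log2 fold change divided by the square root of F, and intervals of 95% on a log2 fold change come from it and the residual plus prior degrees of freedom of the fit. DESeq2 1.42.0, other filters, scalings, blocks and sets of libraries were alternatives. Depth limits precision: most loci outside ribosomal and organellar RNA have few reads, and counting intervals cover counting error only.

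The labels number the replicates 1, 3 and 4 in each group. SCOOP12 and control libraries of one genotype and number deviated together (r 0.168 to 0.439 over 5 pairs, across loci), so the numbers were taken to pair the samples. Over all 15 same-number pairs, including those across genotypes, r was 0.011 to 0.441, and over 30 pairs of different numbers -0.375 to 0.162, so these ranges overlap. Deviations were taken from group means and cancel within a group. Values of different-number pairs are therefore tied to the same-number ones and are no independent reference.

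Of 5224 loci, 5175 matched the RefSeq annotation of TAIR10.1, which gave positions, partners and promoter windows. Near copies among coding transcripts were found with blastn 2.17.0 (identity of at least 95%). Named loci are the 20 with the smallest p each way over both genotypes, up to 10 that passed in 1 genotype only, the 3 smallest p of the genotype difference, and up to 10 that differed between zones. The loci and lists were chosen with earlier results of these data known. The fits were checked on simulated data.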

Additional observations from a re-analysis of the deposited data

Results flagged for a closer look

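At the 40 named loci, 80 groups of 5 SCOOP12 or 6 control libraries were examined on CPM. Of these groups, 8 held a library far from the others by Dixon's gap test. The groups draw on the same 11 libraries and mix genotypes, so the usual chance rate of about 1 in 20 does not apply as such. The treated proscoop12 replicate 1 was the far library 5 times. It stood at 182.9 CPM in AT4G03985, against 79.2 to 103 in the other treated libraries. It stood at 63.7 CPM in AT3G00260 (9.80 to 19.4 in the others), at 287 CPM in AT3G05905 (176 to 206), at 858 CPM in AT4G13505 (242.006 to 377) and at 88.1 CPM in AT4G06685 (47.6 to 58.7). Among controls, proscoop12 replicate 4 was high in AT3G00390 at 8.54 CPM (0 to 2.88 in the others), Ws replicate 3 in AT1G66173 at 143 CPM (27.2 to 70.7), and Ws replicate 4 in AT5G09595 at 704.5 CPM (467 to 532).

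Of the 26 loci called in MEZ whose response differed between the zones in edgeR, the 10 with the smallest p were flagged. Other named loci passed this test too, such as AT1G06983 (edgeR adjusted p 0.00582) and AT5G06865 (0.0186). At the 10 flagged loci the difference was taken as MEZ minus DZ on the log2 scale. It was 2.34 at AT3G52748, 1.54 at AT4G02845, 2.97 at AT4G03585, 1.33 at AT2G14878 and 1.06 at AT5G48412. The difference was negative at AT3G04615 (-2.79), AT3G00260 (-2.92), AT4G06135 (-2.39), AT1G76878 (-1.23) and AT5G09595 (-1.32). With the labels of the 2 disagreeing DZ libraries exchanged, 8 of these 10 still passed, and AT4G06135 and AT5G48412 did not.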

How the results depend on the processing

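The replicate block carried much of the power. Without it 27 loci passed over both genotypes in place of 77, 3 in proscoop12 in place of 28, 1 in Ws in place of 18, and 22 for MEZ minus DZ in place of 77, while the genotype difference stayed at 0. Of the 40 named loci, 25 kept their call without the replicate block.

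Leaving out 1 library gave 47 to 101 loci over both genotypes, 16 to 43 in proscoop12, 6 to 27 in Ws, 0 to 2 for the genotype difference and 32 to 76 for MEZ minus DZ. With all loci kept regardless of counts, 28 passed in Ws and 4 in the genotype difference. The fit of all 22 libraries gave 10 in Ws. Each genotype fitted alone gave 16 in proscoop12 and 64 in Ws, and replicates 1 and 3 alone gave 1 for the genotype difference. For MEZ minus DZ, leaving out the 2 disagreeing DZ libraries gave 44 and exchanging them 15. Over both genotypes DESeq2 called 80 loci, 70 of them among the 77, and replicates 3 and 4 alone, an alternative chosen after seeing the data, called 93.

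Of the 40 loci named over both genotypes, 22 kept their call and 0 changed sign under every alternative that gave a value, and 54 of 834 settings ended a call. A change of sign occurred for AT1G67105 in Ws, at -1.001 with replicates 1 and 3 only, at -0.28 without Ws control replicate 4 and at -0.90 without Ws SCOOP12 replicate 4, and its highest value, without Ws SCOOP12 replicate 3, was 0.94. The causes were not tested.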
